A study of Mus musculus with 13 samples.

Results

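In haematopoietic stem cells (HSCs) of recipients with P-restricted or PEM-restricted blood reconstitution, 457 regions of open chromatin had at most 0.5 times the accessibility that they had in HSCs of multilineage recipients. They were chosen from a table of 115295 regions. Counts were scaled to the library total (counts per 1000000, CPM), and a region was kept when its mean count over all 13 libraries was at least 10, when its mean CPM was at most 0.5 of the multilineage mean in each restricted group, and when it lay outside chromosomes X and Y. The first and last of these conditions left 48540 eligible regions, of which the 457 are 0.941%. "Closed" below means only this lower level of counts. In bulk libraries, fewer cells with an open region and a less open region in each cell cannot be told apart.

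The samples were 13 bulk ATAC-seq libraries from bone marrow of C57BL/6 mice that had each been transplanted with 1 Vwf+ HSC and followed for 16 weeks. Recipients were classed by the lineages that the transplanted cell restored, and the labels do not spell out the letters P and PEM. The 3 groups are MUL-HSC (multilineage recipients, n = 4), PEM-HSC (PEM-restricted recipients, n = 6) and PLT-HSC (P-restricted recipients, n = 3). All libraries share the sorted phenotype LSK Flt3- CD150+ CD48- CD45.2+ Gata1-, with 500 donor-derived cells per replicate. As each recipient received 1 HSC, the donor cells of 1 recipient descend from 1 cell, and the labels do not state which libraries came from separate recipients. P-values therefore measure only the spread between these libraries, which may be technical. The labelled cell type was not checked against marker genes, because no mm9 annotation was used here.

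ATAC-seq marks DNA that a transposase can reach, which in mammalian cells is mainly promoters, enhancers and insulators. Enhancers tend to be more specific to a cell type than promoters. HSCs give rise to all blood lineages, and a fraction of them, marked by the platelet glycoprotein gene Vwf, is biased towards platelets. In stem and progenitor cells, regulatory elements of lineages not yet entered can already be open, which is known as lineage priming. Regions are named here by their mm9 position, and no gene or sequence is assigned to them.

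Library totals ranged from 1276962 to 3851165 counts. They were 1307222 to 2831520 in MUL-HSC, 1276962 to 3851165 in PEM-HSC and 2378024 to 3307889 in PLT-HSC, so the 3 ranges overlapped. Depth was not balanced, as MUL-HSC replicates 1, 2 and 3, at 1728184, 1307222 and 2188436 counts, were below every PLT-HSC library. The 457 regions together held 0.425% to 0.652% of the counts of a MUL-HSC library, 0.163% to 0.307% of a PEM-HSC library and 0.156% to 0.234% of a PLT-HSC library. MUL-HSC replicate 3 had the lowest share of its group, and results that rest on it are given with and without it below.

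The 457 regions had ordinary accessibility in MUL-HSC and kept some counts in the restricted groups. Their MUL-HSC means ran from 6.30 to 37.1 CPM with a median of 10.5 CPM, close to the median of 10.4 CPM over all eligible regions. The median of the group means was 4.31 CPM in PEM-HSC and 3.66 CPM in PLT-HSC, against 10.03 and 10.4 CPM over eligible regions. The median ratio to MUL-HSC was 0.423 for PEM-HSC and 0.367 for PLT-HSC. In 331 regions the ratio of PEM-HSC was the larger of the pair. By this larger ratio, 11 regions lay at or below 0.2, 31 between 0.2 and 0.3, 95 between 0.3 and 0.4, and 320 (70.02%) between 0.4 and 0.5. Most of the set therefore sits near the limit of the rule. These values chose the regions and are a description.

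**Figure D1:**
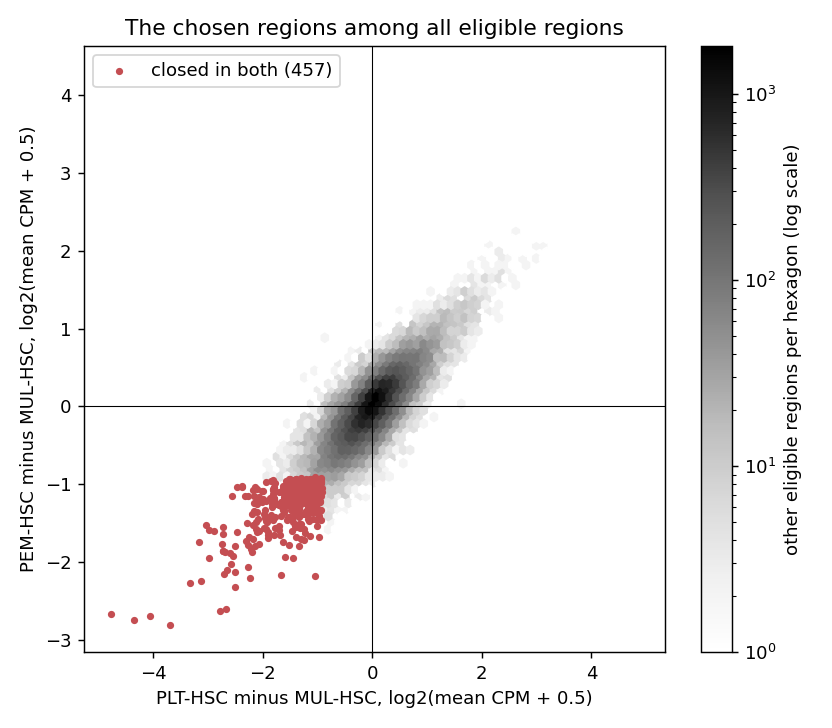
Difference of each restricted group from MUL-HSC for the eligible regions, as log2(mean CPM + 0.5), with PLT-HSC on the x axis and PEM-HSC on the y axis. Grey hexagons count the other eligible regions on a log scale and red points are the 457 closed regions, which form the lower left end of one continuous cloud. Both axes share the MUL-HSC libraries.

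At the limit of the rule the values were continuous. The 3 regions just inside were on chromosome 10 (83864549 to 83865141), chromosome 7 (117413710 to 117414407) and chromosome 2 (167207124 to 167207491), with MUL-HSC means of 9.55, 9.27 and 10.5 CPM. The 3 just outside, on chromosome 6 (23598635 to 23599141), chromosome 3 (41132756 to 41133397) and chromosome 17 (63157133 to 63157762), had 8.02, 8.10 and 9.90 CPM. In the one nearest to the limit, on chromosome 10, PEM-HSC had 4.77 ± 1.14 CPM (SD, n = 6) against 9.55 ± 3.51 in MUL-HSC (SD, n = 4), and PLT-HSC had 3.83 ± 2.72 CPM (SD, n = 3).

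All 457 regions entered the edgeR quasi-likelihood fit over 59408 regions of the whole table. In PLT-HSC against MUL-HSC, 207 of them were called lower (Benjamini-Hochberg adjusted over all regions tested), where 1.28% of all tested regions were. In PEM-HSC against MUL-HSC, 147 were called lower, where 0.589% of all tested regions were. None was called higher in either, where 1.13% of all tested regions were in PLT-HSC and 0.242% in PEM-HSC. Both contrasts chose the regions, so nothing is read from these counts. Both comparisons share the MUL-HSC libraries. The PLT-HSC count of 207 depended on single libraries. It was 59 with PLT-HSC replicate 1 left out and 113 with replicate 2 left out. Leaving out MUL-HSC replicate 1, 2 or 4 gave 112, 122 and 100. The PEM-HSC count of 147 was 37, 42, 246 and 28 when MUL-HSC replicates 1 to 4 were left out in turn. Leaving out PEM-HSC replicate 1, 2 or 5 gave 62, 84 and 64. Every MUL-HSC library lay above every PEM-HSC and PLT-HSC library in 177 of the 457 regions (38.7%), against 1.28% of eligible regions, again by the same values that chose them.

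**Figure D2:**
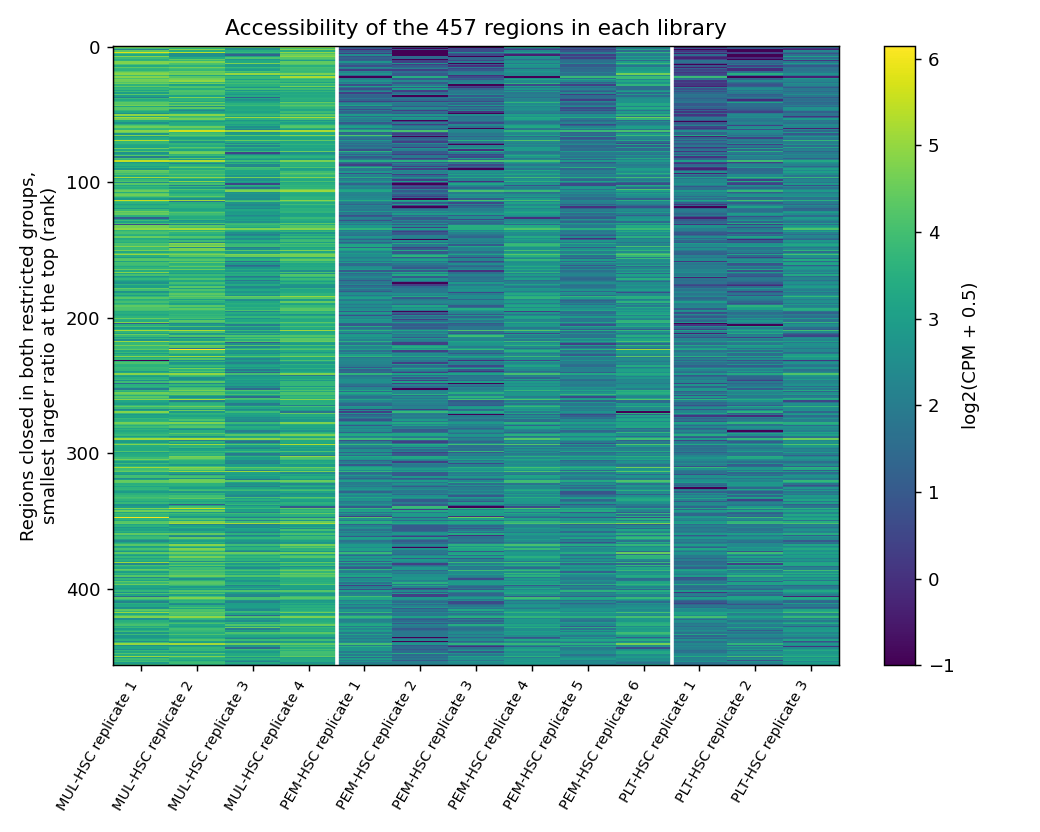
Accessibility of the 457 regions, as log2(CPM + 0.5), in each of the 13 libraries (columns; white lines separate MUL-HSC, PEM-HSC and PLT-HSC). Rows are ordered by the larger of both ratios to MUL-HSC, smallest at the top. MUL-HSC replicate 3, at a median of 8.23 CPM, is the darkest of its group, and PEM-HSC replicates 4 and 6, at 5.71 and 5.78 CPM, are the brightest of theirs.

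Among the 177 separated regions, the 12 with the smallest larger ratio lay on 9 chromosomes and were 476 to 1086 bp wide. That every MUL-HSC library lies above every restricted library in these 12 was a condition of their choice and is no result. Their PLT-HSC to MUL-HSC ratios were 0.0147 to 0.169 and their PEM-HSC to MUL-HSC ratios 0.119 to 0.226. The first lay on chromosome 8 from 124559257 to 124559832. Its MUL-HSC replicates 1 to 4 had 12.7, 20.7, 8.68 and 13.1 CPM. Its PEM-HSC libraries had 0.523 CPM at the lowest, 1.80 at the median and 2.60 at the highest. Its PLT-HSC replicates had 0, 0 and 0.606 CPM. This region was thus open in each MUL-HSC library and at or near 0 in the PLT-HSC libraries, which held 2 counts against 105 in MUL-HSC. The ratio of those counts per total is 0.0171 (95% counting interval 0.00204 to 0.0632, exact, counting error only). The region was picked for low ratios in these same counts. The interval allows neither for that choice nor for the spread between libraries.

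A region on chromosome 9 from 14822372 to 14823128 had 26.0, 21.4, 20.1 and 30.0 CPM in MUL-HSC replicates 1 to 4. In PEM-HSC it had 0 CPM at the lowest, 1.49 at the median and 8.83 at the highest. In PLT-HSC it had 0.302, 1.26 and 2.73 CPM. Here MUL-HSC replicate 3 lay with its group. The gap between the groups, required by the choice, ran from 8.83 to 20.1 CPM.

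On chromosome 17, the region from 30655691 to 30656372 had the second highest MUL-HSC mean of all 457, 34.6 ± 17.5 CPM (SD, n = 4). Its MUL-HSC replicates spread widely, at 54.4, 41.3, 13.3 and 29.3 CPM, with replicate 3 the lowest. PEM-HSC ran from 0 through a median of 4.12 to 11.6 CPM, and PLT-HSC had 1.51, 0.841 and 2.42 CPM. The highest PEM-HSC library and the lowest MUL-HSC library were therefore close.

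A second region of chromosome 17, from 13852464 to 13852981, had 14.5, 9.94, 16.9 and 18.7 CPM in MUL-HSC replicates 1 to 4. PEM-HSC had 0.785 CPM at the lowest, 2.20 at the median and 5.19 at the highest, and PLT-HSC had 0.302, 0.421 and 2.42 CPM. The choice required every MUL-HSC library, replicate 3 included, to be above the highest restricted library.

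The region on chromosome 2 from 52035269 to 52035987 had PLT-HSC values of 0.605, 0 and 4.24 CPM and a PEM-HSC median of 1.43 CPM (0 to 4.15), against 19.7, 10.7, 10.5 and 10.9 CPM in MUL-HSC. On chromosome 8, a second region from 36352052 to 36352578 had 14.5, 11.5, 5.03 and 15.9 CPM in MUL-HSC, a PEM-HSC median of 1.56 CPM (0 to 2.89) and PLT-HSC values of 1.51, 1.68 and 0.606 CPM. Its MUL-HSC replicate 3 was the lowest of the group, and above all restricted libraries as the choice required. The other 6 regions lay on chromosome 4 (84331480 to 84332191), chromosome 5 (148339352 to 148339888), chromosome 7 (146342257 to 146342940), chromosome 9 (61169499 to 61170585), chromosome 13 (102078663 to 102079139) and chromosome 14 (48477577 to 48478220). Their MUL-HSC means were 22.7, 14.5, 10.8, 20.8, 9.89 and 10.7 CPM in that order. Their PEM-HSC means were 4.92, 3.17, 1.88, 4.28, 2.23 and 2.18 CPM, and their PLT-HSC means 3.19, 1.99, 0.785, 2.76, 1.29 and 1.81 CPM.

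The lowest PLT-HSC to MUL-HSC ratio of all 457 belonged to a region that is not among these 12, on chromosome 19 from 58068729 to 58069207, chosen for mention after its values were seen. It held 1 count over the PLT-HSC libraries and 131 over the MUL-HSC libraries, a ratio per total of 0.00684 (95% counting interval 0.000172 to 0.0388). This interval too allows neither for the choice by the same counts nor for the spread between libraries. Its MUL-HSC mean was 16.0 ± 12.7 CPM (SD, n = 4) and its PEM-HSC mean 2.10 ± 2.96 CPM (SD, n = 6), and its MUL-HSC replicates 1 to 4 had 4.05, 27.5, 5.94 and 26.5 CPM. PEM-HSC replicate 6, at 8.09 CPM, was above MUL-HSC replicates 1 and 3, so the groups overlapped.

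The 5 regions with the highest MUL-HSC means were 515 to 947 bp wide, and 1 of them is the chromosome 17 region from 30655691 described above. The highest lay on chromosome 18 from 12090062 to 12090577, with 28.4, 49.0, 33.8 and 37.4 CPM in MUL-HSC replicates 1 to 4. PEM-HSC had 4.59 CPM at the lowest, 13.3 at the median and 16.4 at the highest, and PLT-HSC had 5.14, 5.05 and 2.12 CPM. In this region the 3 groups formed 3 levels, with a single PEM-HSC library among the PLT-HSC values. On chromosome 2, the region from 35754074 to 35754909 had 20.8, 36.0, 36.1 and 35.3 CPM in MUL-HSC and 15.3 ± 6.85 CPM in PEM-HSC (SD, n = 6), and its highest PEM-HSC library, at 26.0 CPM, was above MUL-HSC replicate 1. The chromosome 15 region from 27757541 to 27758309 had 30.8 ± 6.87 CPM in MUL-HSC (SD, n = 4), 12.2 ± 5.07 in PEM-HSC (SD, n = 6) and 14.2 ± 8.25 in PLT-HSC (SD, n = 3), and its highest PLT-HSC library, at 23.0 CPM, was above MUL-HSC replicate 4, at 21.9 CPM.

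A single library set the MUL-HSC mean of the remaining one. On chromosome 6, the region from 143005673 to 143006620 had 70.4 CPM in MUL-HSC replicate 2 and 16.5 to 19.7 CPM in the other MUL-HSC libraries. PEM-HSC replicate 6 had 34.7 CPM there and the other PEM-HSC libraries 6.75 to 13.3 CPM, so PEM-HSC replicate 6 exceeded 3 of the 4 MUL-HSC libraries.

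The closed regions were not evenly spread over the genome. Chromosome 12 had the highest share, with 33 of 1969 eligible regions (1.68%), and chromosome 19 the lowest, with 5 of 1624 (0.308%). Of the eligible region that follows each closed region along its chromosome, 22 of 457 (4.81%) were closed regions too, where 0.941% of all eligible regions are. For the regions opened in both restricted groups (both ratios at least 2, 707 regions), the same share was 6.65%, where 1.46% of eligible regions are such regions. Adjacent regions of one kind were thus found in both sets, and no test sets them apart. Several of the adjacent closed regions lay in the segments of chromosomes 12 and 7 described below. The share without these segments was not taken.

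Joining regions whose facing ends lay within 50 kb gave 23 clusters with 51 regions (11.2%), of which 20 held 2 regions, 1 held 3 and 2 held 4. Without MUL-HSC replicate 1 the number of clustered regions was 23, and without MUL-HSC replicate 3 it was 83 of 705 chosen. Clusters of chromosomes 12 and 7 were the largest. Tightly placed pairs outside these included chromosome 4 from 134714647 to 134716442 (1.8 kb in all), chromosome 1 from 89856306 to 89858449 (2.14 kb), chromosome 4 from 154536464 to 154539084 (2.62 kb) and chromosome 1 from 167605307 to 167610657 (5.35 kb). Whether such pairs are parts of one element was not tested.

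The largest group lay in a segment of the distal part of chromosome 12. With gaps of up to 200 kb, 13 closed regions joined into a segment from 116357715 to 117100449 (743 kb), 4.12 Mb before the end of the last region of that chromosome in the table. The segment held 66 regions of the table, 23 of them eligible, so that 56.5% of its eligible regions were closed regions. The segment was made by joining closed regions and ends in them, so a high share is built into it. Outside it, chromosome 12 had 20 closed regions among 1946 eligible ones (1.03%), close to the 0.941% of the whole table. As background, the distal part of mouse chromosome 12 carries the immunoglobulin heavy chain genes, whose variable gene segments are joined to other segments during B cell development. Whether the segment lies in that locus was not determined here.

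Summed over these 13 regions, MUL-HSC replicates 1 to 4 had 284, 298, 164 and 186 CPM. PEM-HSC replicates had 39.2 CPM at the lowest and 131 at the highest, with a mean of 76.5 ± 31.7 CPM (SD, n = 6). PLT-HSC replicates had 20.6, 57.6 and 45.8 CPM. The MUL-HSC libraries all lay above the others, and PEM-HSC and PLT-HSC overlapped. The rule chose these regions by the same values, so the height of MUL-HSC here is a description. Ratios to MUL-HSC were 0.103 to 0.282 in PLT-HSC and 0.239 to 0.497 in PEM-HSC. In 8 of the 13 regions every MUL-HSC library was above every other, against 38.7% of all closed regions and 1.28% of eligible regions.

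The first cluster within it held regions from 116357715 to 116358288, 116383510 to 116384038, 116396404 to 116397000 and 116446155 to 116446755. In this order they had 18.0, 17.8, 21.8 and 12.7 CPM in MUL-HSC, 4.597, 4.50, 8.90 and 3.46 CPM in PEM-HSC, and 2.29, 2.36, 6.16 and 2.15 CPM in PLT-HSC. The region from 116383510 shows the single libraries. It had 17.9, 22.9, 17.4 and 13.1 CPM in MUL-HSC replicates 1 to 4, 2.35 through a median of 3.86 to 8.09 CPM in PEM-HSC, and 1.21, 2.52 and 3.33 CPM in PLT-HSC. The lowest MUL-HSC library was above the highest restricted library, again in values that chose the region. The second cluster held regions from 116573099 to 116573523, 116597157 to 116597695 and 116610003 to 116610386, with MUL-HSC means of 18.0, 14.3 and 13.1 CPM, PEM-HSC means of 4.32, 4.10 and 4.73 CPM and PLT-HSC means of 1.85, 2.61 and 2.47 CPM.

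Of the 23 eligible regions of the segment, 22 had a lower mean in PLT-HSC and 21 in PEM-HSC than in MUL-HSC. Over all eligible regions, 47.5% and 46.6% had a log2 fold change below 0. In the segment, 14 were called lower in PLT-HSC and 9 in PEM-HSC (edgeR, adjusted), where 1.28% and 0.589% of all tested regions were. Of these calls, 13 in PLT-HSC and all 9 in PEM-HSC were among the 13 closed regions, which the rule chose for low values. The change itself divides the 13 from the other 10. The 10 eligible regions of the segment outside the set had a median width of 897.5 bp, against 596 bp for the 13. Summed over these 10, MUL-HSC had 124 ± 6.27 CPM (SD, n = 4), PEM-HSC 102 ± 14.4 CPM (SD, n = 6) and PLT-HSC 77.9 ± 15.6 CPM (SD, n = 3). The MUL-HSC libraries, at 117 to 132 CPM, again lay above all others, by less. The region from 117071987 to 117072479 was called lower in PLT-HSC (adjusted p = 0.0397, edgeR). The region from 116403614 to 116404548, between closed regions of the first cluster, had a MUL-HSC mean of 25.2 CPM, a PEM-HSC mean of 25.2 CPM and a PLT-HSC mean of 21.3 CPM. Among the 43 regions of the segment with a mean count under 10, 16 met both ratios. Over all such regions outside chromosomes X and Y, 6.57% did. A lower mean in both restricted groups was found in 35 of the 43, and its share over all such regions was not taken.

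**Figure D3:**
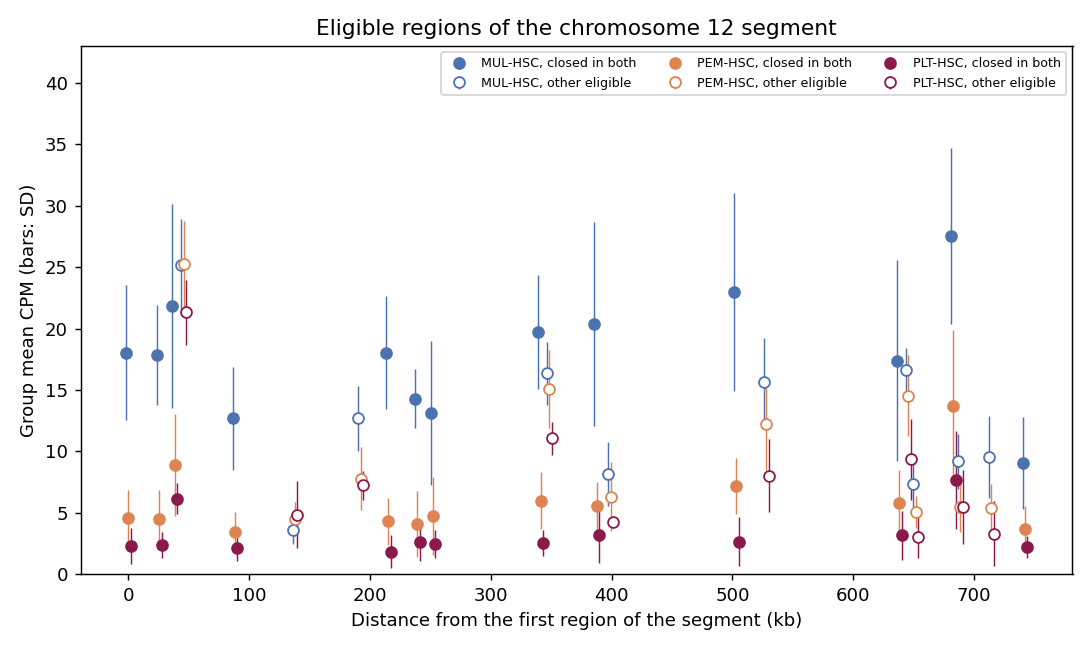
Group mean CPM (points; bars are SD over n = 4 MUL-HSC, 6 PEM-HSC and 3 PLT-HSC libraries) of the 23 eligible regions of the chromosome 12 segment, by distance from its first region in kb. Filled points are the 13 closed regions and open points the other 10; filled MUL-HSC points stand above filled PEM-HSC and PLT-HSC points throughout, whereas several open points of the 3 groups overlap. Points of the groups are shifted by 2 kb for display.

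A second segment, joined in the same way, lay near the start of chromosome 7, from 3691263 to 3867381 (176 kb). A high share is built into it too, and 6 of 7 eligible regions were in the set. The 7th, from 3777160 to 3777660, had 26.0 CPM in MUL-HSC and 13.04 CPM in either restricted group, just outside the limit. Summed over the 6 regions, MUL-HSC replicates 1 to 4 had 178, 125, 55.3 and 91.5 CPM. PEM-HSC libraries had 21.2 to 57.2 CPM and PLT-HSC libraries 26.0, 55.5 and 39.99 CPM. MUL-HSC replicate 3 lay within the range of the restricted libraries, so the groups overlapped here.

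Several regions of this segment had nearly equal values. Those from 3691263 to 3691967 and from 3796415 to 3797131 were 704 and 716 bp wide, with MUL-HSC means of 30.3 and 30.7 CPM, PEM-HSC means of 10.997 and 11.1 CPM and PLT-HSC means of 11.7 and 10.6 CPM. Those from 3723875, 3820729, 3849500 and 3867021 had 13.1, 12.8, 12.8 and 12.9 CPM in MUL-HSC. Near-identical copies of a sequence can share reads in such counts. Whether these regions share sequence was not tested. PLT-HSC and PEM-HSC had log2 fold changes of -0.22 to 0.48 between them in these 6 regions.

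The closed regions were narrower than the eligible regions, with a median width of 618 bp (207 to 1663 bp) against 755 bp, and regions opened in both groups had 656 bp. Their counts were also lower, with a median of the mean count of 14.0 against 25.2. At like counts the widths were close. Among regions with a mean count of 10 to 20, the median width was 582 bp for the 354 closed regions and 550 bp for all 19270 eligible ones. From 20 to 40 counts it was 727 bp for 99 closed regions and 747 bp for eligible ones. At 40 counts or more only 4 closed regions were left of 16412 eligible. The share of closed regions thus fell from 1.84% through 0.770% to 0.0244% with rising count, and that of opened regions from 2.67% through 1.29% to 0.165%. A ratio varies more at low counts, and the part of this in the choice was not tested. Of the 63667 regions under 10 counts outside chromosomes X and Y, 4185 (6.57%) met both ratios and were left out for their counts. On chromosomes X and Y, 3 regions of 1031 with enough counts met both ratios.

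Regions beside the closed regions had slightly lower accessibility in the restricted groups as well. The 1050 eligible regions outside the set and within 25 kb of it had a median difference from MUL-HSC of -0.051 in PLT-HSC and -0.053 in PEM-HSC on the log2(mean CPM + 0.5) scale. The other 47033 had 0.024 and 0.023. By library, the median near the set was -0.10 to -0.043 in PLT-HSC and -0.14 to -0.043 in PEM-HSC, and away from it -0.017 to 0.038 and -0.039 to 0.017, all against the same MUL-HSC means. In each of the 9 restricted libraries the value near the set was the lower. Within 5 kb the medians were -0.089 and -0.11 over 184 regions, and from 25 to 100 kb they were -0.0063 and -0.0040 over 2560 regions. The set itself had -1.34 and -1.16. The rule fixed this contrast, since it chose the set for low ratios and regions that met it are not counted as neighbours.

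**Figure D4:**
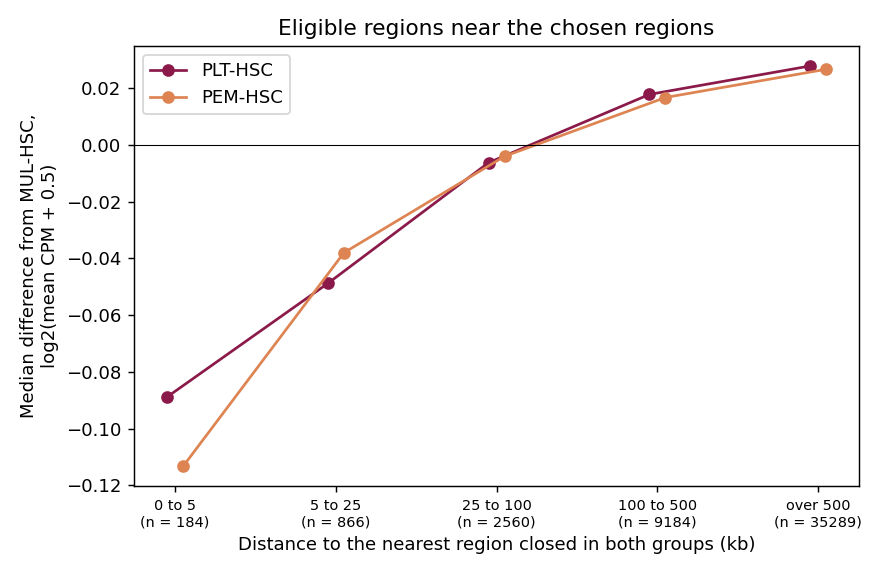
Median difference of PLT-HSC and PEM-HSC from MUL-HSC, as log2(mean CPM + 0.5), of eligible regions outside the set, by distance to the nearest closed region in kb; n is the number of regions. The medians rise from -0.089 and -0.11 within 5 kb to 0.028 and 0.027 beyond 500 kb, and both lines share the MUL-HSC libraries.

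Few closed regions had an opened region beside them. An opened region lay within 50 kb of 12 of the 457 (2.63%), and of 5.21% of all eligible regions, a region itself not counted. Within 10 kb there were 2 such pairs. On chromosome 9, the closed region from 61169499 to 61170585 lay 5378 bp after an opened region from 61162979 to 61164121. The closed region had 26.6, 26.0, 9.60 and 20.8 CPM in MUL-HSC replicates 1 to 4, 0.783 through a median of 4.70 to 6.93 CPM in PEM-HSC, and 2.72, 2.52 and 3.03 CPM in PLT-HSC. The opened region had 6.27 ± 2.27 CPM in MUL-HSC (SD, n = 4), 17.9 ± 4.70 in PEM-HSC (SD, n = 6) and 20.9 ± 3.85 in PLT-HSC (SD, n = 3). On chromosome 3, the closed region from 87834569 to 87835250 lay 4153 bp before an opened region that ends at 87840325. It had 9.21 ± 3.17 CPM in MUL-HSC (SD, n = 4), 2.55 ± 2.25 in PEM-HSC (SD, n = 6) and 3.92 ± 1.08 in PLT-HSC (SD, n = 3), and the opened region had 3.26, 7.69 and 11.2 CPM in the same order.

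The libraries of each group differed among themselves in the set. Summed over the 457 regions, MUL-HSC replicates 1 to 4 had 6348, 6525, 4252 and 5808 CPM. PEM-HSC replicates 1 to 6 had 2140, 1629, 1946, 2920, 1989 and 3073 CPM, and PLT-HSC replicates 1 to 3 had 1562, 1916 and 2339 CPM. MUL-HSC replicate 3 was the lowest, and PEM-HSC replicates 4 and 6 the highest, of their groups. MUL-HSC replicate 3 was the lowest library of its group in 283 of the 457 regions (61.9%), where it was so in 24.7% of eligible regions. Its median ratio to the mean of the other MUL-HSC libraries was 0.654, with quartiles of 0.504 and 0.880, against 0.997 over eligible regions. PEM-HSC replicates 4 and 6 had median ratios to the rest of their group of 1.39 and 1.36, and PLT-HSC replicate 3 of 1.28, against 1.003, 0.996 and 0.999 over eligible regions. In the regions opened in both groups the order turned round for MUL-HSC replicate 3, which had 3427 CPM against 1340 to 2233 in the other MUL-HSC libraries.

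Because these sums include libraries that chose the regions, the rule was also applied without each library in turn and that library was then measured. Without MUL-HSC replicate 3 the rule chose 705 regions, 423 of them in the set. There MUL-HSC replicate 3 had 5838 CPM, the other MUL-HSC libraries 8599 to 10271 and the PEM-HSC libraries 2938 to 4733. It lay above every restricted library, and nearer to the PEM-HSC mean of 3786 CPM than to the mean of 9666 CPM of the other MUL-HSC libraries. MUL-HSC replicates 1, 2 and 4, left out in the same way, had 5055, 4712 and 4957 CPM, which is 0.944, 0.948 and 0.835 of the mean of the other MUL-HSC libraries, where replicate 3 had 0.604. PEM-HSC replicates 4 and 6 had 1.43 and 1.55 times the mean of the other PEM-HSC libraries and the other 4 had 0.820 to 0.995. PLT-HSC replicates 1, 2 and 3 had 0.837, 1.20 and 1.47 times the mean of the other PLT-HSC libraries. The libraries each was set against had chosen the regions. The number chosen was 400 to 563 without any one of the other 12 libraries, and 313 to 441 of those were in the set.

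**Figure D5:**
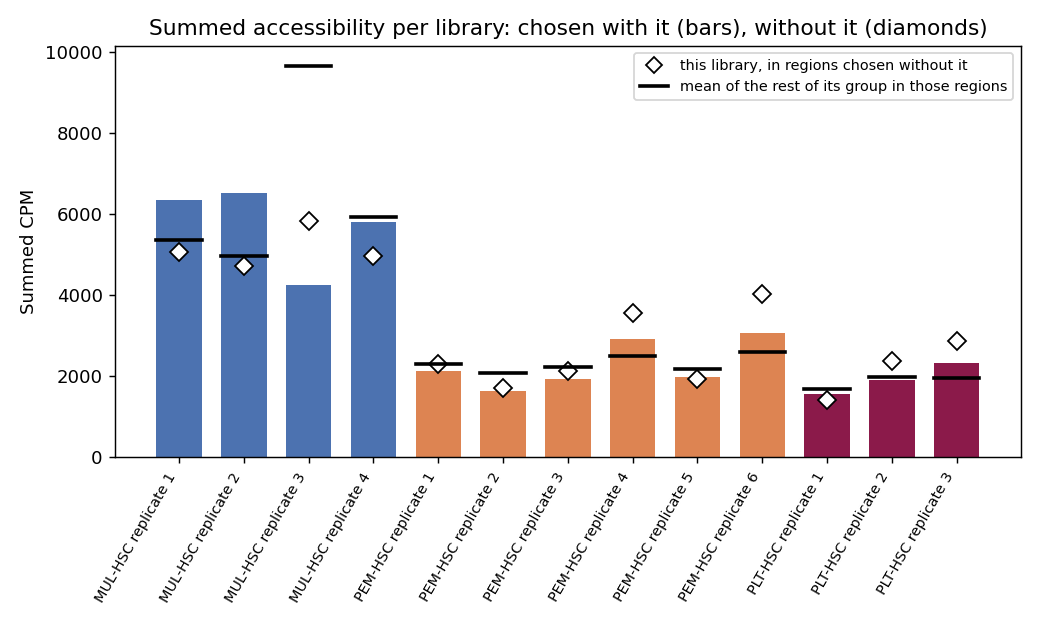
Summed CPM per library over the 457 closed regions (bars; MUL-HSC blue, PEM-HSC orange, PLT-HSC purple), and over regions chosen without that library (diamonds), with the mean of the rest of its group in those regions (black lines). MUL-HSC replicate 3 has 5838 CPM against a mean of 9666, and PEM-HSC replicates 4 and 6 have 3566 and 4025 CPM against 2502 and 2599. PLT-HSC replicate 3 has 2871 CPM against 1952.

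The rule did not compare PLT-HSC with PEM-HSC directly. It did require both means to be at most 0.5 of MUL-HSC, which left out regions where either restricted group stayed high. Within this choice, the comparison of PLT-HSC with PEM-HSC asked whether the restricted groups differ from each other. No region of the 457 passed the threshold (edgeR quasi-likelihood test, adjusted over 59408 regions, smallest adjusted p = 0.519), where 0.00168% of all tested regions did, and DESeq2 also called 0 (37 at an unadjusted p under 0.05). At that unadjusted p, edgeR gave 37 of the 457 (8.10%), 35 lower and 2 higher in PLT-HSC, where 4.61% of all tested regions did. This count rested on single libraries, being 18 when PLT-HSC replicate 1 was left out and 71 when PLT-HSC replicate 3 was left out, and it was 24 with the replicate number as a block. Every PLT-HSC library lay below every PEM-HSC library in 6 regions (1.31%), where 0.904% of eligible regions did so. The median log2 fold change was -0.23 over the 457 regions and -0.0017 over eligible regions, and 346 of the 457 (75.7%) were below 0, against 50.3%. Only 271 were below 0 without PLT-HSC replicate 1. The rule takes low values from a mean of 3 PLT-HSC libraries and a mean of 6 PEM-HSC libraries. Neither the numbers of calls nor this direction is therefore independent of the choice. Measured in regions chosen without them, PLT-HSC replicates 1, 2 and 3 had 1419, 2379 and 2871 CPM, where the PEM-HSC means were 1974, 2374 and 2530 CPM. Those PEM-HSC libraries had chosen the regions and the PLT-HSC library had not, which lowers the PEM-HSC means in this comparison, so it does not show which restricted group was lower.

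The 4 regions with the smallest p in this comparison were all lower in PLT-HSC, with log2 fold changes of -1.68 to -1.23 and adjusted p of 0.519 to 0.564 (edgeR quasi-likelihood test). They were the chromosome 18 region from 12090062 described above, and regions on chromosome 2 (173082824 to 173083639), chromosome 18 (56706474 to 56707201) and chromosome 4 (139245398 to 139246185). The chromosome 18 region from 12090062 had a log2 fold change of -1.63 ± 0.32 (SE), and without PEM-HSC replicate 3, its lowest PEM-HSC library, it passed the threshold with -1.78 ± 0.27 (adjusted p = 0.0112, edgeR). The chromosome 4 region had 2.72, 7.57 and 6.97 CPM in PLT-HSC and 7.83 through a median of 11.8 to 19.1 CPM in PEM-HSC. All PLT-HSC values were thus below those of PEM-HSC, which were below MUL-HSC at 21.4, 31.4, 32.9 and 25.1 CPM. The chromosome 2 region had 2.12, 1.68 and 4.24 CPM in PLT-HSC, 5.23 through 6.84 to 12.1 CPM in PEM-HSC, and 15.0, 14.5, 14.2 and 20.8 CPM in MUL-HSC. Its groups formed 3 levels that did not overlap. This region and that of chromosome 4 were picked as closed regions and for small p in this comparison. Their separate levels therefore follow in large part from the choice. A further region, on chromosome 4 from 137812956 to 137813638 and chosen after its values were seen, passed only without PLT-HSC replicate 3 (log2 fold change -1.81 ± 0.33, adjusted p = 0.0345, edgeR).

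In the chromosome 12 segment all 13 closed regions had a log2 fold change below 0 for PLT-HSC against PEM-HSC, from -1.497 to -0.57. Over eligible regions, 50.3% were below 0. None of the 13 passed the adjusted threshold and 6 had an unadjusted p under 0.05 (edgeR quasi-likelihood test), where 4.61% of all tested regions did. Summed over the 13 regions, PLT-HSC replicate 1 had 20.6 CPM, below all PEM-HSC libraries at 39.2 to 131 CPM. PLT-HSC replicates 2 and 3, at 57.6 and 45.8 CPM, lay within that range. The 13 regions were measured in the same libraries and are not separate results. The segment was picked for its closed regions, so here too the direction is not independent of the choice.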

How the data were processed

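The deposited table holds raw counts per region, whole numbers for 115295 regions in 13 libraries. The tools named in the submitters' processing notes are MACS2, Picard, SAMtools, Bowtie2, Trim Galore and FastQC, and the build is mm9. Not given in the sources used here are their versions, the counting tool, pooling for peak calling and any shift of read ends. If regions were called mainly from deep libraries, regions open only in shallow ones would be missed. The reference gene table has another build, so no gene or sequence was assigned.

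The rule used CPM by column totals. Tests used edgeR 4.0.16 in R 4.3.3 (filterByExpr, TMM, robust quasi-likelihood fit of all 13 libraries, two-sided, Benjamini-Hochberg over 59408 regions, threshold 0.05), tested on simulated data. DESeq2 1.42.0 was an alternative. Other values were computed in Python 3.11.15. Totals of 1276962 to 3851165 set the precision.

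Members, lists and rules were chosen with earlier results of these data known. Named regions are the 12 separated members of smallest larger ratio, the 5 of highest MUL-HSC mean, the 3 largest clusters, 3 on each side of the limit, and the 4 of smallest p for PLT-HSC against PEM-HSC. Alternatives were other scalings, filters, ratios, gaps and distances, thinning, the replicate number as a block, and leaving out libraries.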

Additional observations from a re-analysis of the deposited data

Results flagged for a closer look

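A check for a library apart from its group covered MUL-HSC and PEM-HSC only, and PLT-HSC, with 3 libraries, was not tested. In 6 of 70 groups of library values tested, 1 library lay far from the rest of its group, and chance alone marks about 1 in 20. All 6 concern single regions. On chromosome 6 from 143005673 to 143006620, MUL-HSC replicate 2 had 70.4 CPM against 16.5 to 19.7 in the others, and PEM-HSC replicate 6 had 34.7 CPM against 6.75 to 13.3. On chromosome 2, MUL-HSC replicate 1 had 19.7 CPM against 10.5 to 10.9 in the region from 52035269 to 52035987, and 20.8 CPM against 35.3 to 36.1 in the region from 35754074 to 35754909. MUL-HSC replicate 4 had 20.8 CPM against 14.2 to 15.0 in the region from 173082824 to 173083639 of the same chromosome. On chromosome 5 from 148339352 to 148339888, MUL-HSC replicate 3 had 7.31 CPM against 16.1 to 17.7.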

How the results depend on the processing

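The rule gave 137 regions (19 in clusters) at a ratio of 0.4 and 1230 (230 in clusters) at 0.6. It gave 103 regions (0 in clusters, median width 752 bp) at a mean count of 20, and 148 (11 in clusters, median width 719 bp, PLT-HSC neighbours at -0.10) after thinning to the smallest total, where 101 were in the set. Without the 5 libraries under 2000000 counts it gave 471 regions with a median width of 574 bp, of which 204 were in the set. Leaving out each library gave 400 to 705 regions, 23 to 83 of them in clusters, and PLT-HSC neighbours at -0.087 to -0.034. Clusters held 12 regions at a gap of 10000 bases and 120 at 200000. Neighbours within 5000 bases had medians of -0.089 (PLT-HSC) and -0.11 (PEM-HSC), and within 100000 bases -0.018 (PLT-HSC).

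Of the 457 regions, only 103 were tested when a mean count of at least 20 was required. Of these 103, 65 were called lower in PLT-HSC and 48 in PEM-HSC. These numbers do not compare directly with 207 and 147 of 457 in the main fit. The share of all tested regions called was not taken in the alternatives. The numbers called lower in PLT-HSC and in PEM-HSC were 71 and 8 without the libraries under 2000000 counts. That run had fewer libraries and also lacked MUL-HSC replicates 1 and 2, and it does not tell these apart. The replicate number as a block gave 109 and 56; same-numbered libraries correlated at -0.14 to 0.099 in their deviations from the group means, so the numbers were not taken to pair them. Leaving out each library gave 59 to 280 and 28 to 246, and 0 to 1 for PLT-HSC against PEM-HSC. The cause of these changes was not tested. Direction was followed by region for 33 named closed regions against MUL-HSC, and for the 4 of smallest p in PLT-HSC against PEM-HSC. None of these log2 fold changes turned round, and the neighbour medians stayed negative. The 33 regions were chosen for low ratios, and the 4 for small p, in these same libraries. That their direction held was therefore largely set by the choice and is no independent support. Over the whole set, values of PLT-HSC against PEM-HSC were less stable. The number below 0 was 346 of 457 in the main fit and 284 with the block, so some regions changed direction. With the segments of chromosomes 12 and 7 left out, an alternative chosen after seeing the data, 34 regions lay in clusters.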
